A study of Rattus norvegicus with 9 samples.

Results

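Immediate early genes are the first genes that a cell transcribes after a stimulus. In spinal neurons their RNA rises within minutes of noxious input, through kinase cascades that activate CREB and serum response factor already present in the cell, and it declines again soon after. Most of these genes also respond to injury, stress and handling in glial, vascular and immune cells. The group followed here holds 10 genes of 34890 loci listed, chosen by name: the AP-1 subunits Fos, Fosb and Junb, the transcription factors Egr1, Npas4 and Nr4a1, the synaptic gene Arc, the MAP kinase phosphatase gene Dusp1, and the response genes Ier2 and Btg2. Each name matched a single locus.

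RNA was taken from the ipsilateral L3-L6 spinal cord of male wild-type Sprague Dawley rats in 3 groups of 3 samples. JA rats had the sham operation, with the nerves exposed but neither tied nor cut, and received normal saline by mouth. SNI rats had spared nerve injury, a model of neuropathic pain that ties off and cuts the tibial and common peroneal nerves and keeps the sural nerve, and received normal saline by mouth. PLM rats had the same injury and were given the middle dose of the plant compounds paeoniflorin and liquiritin by mouth. The labels list paeoniflorin at 20.65 mg/ml for all 3 PLM samples and liquiritin at 3.98, 3.99 and 3.100 mg/ml for PLM 1, 2 and 3, whereas the methods give the whole group a single dose, the first of these, so the labels do not establish that the dose differed between the rats. All 3 groups were operated under pentobarbital, and the labels number the samples as biological replicates. The methods put the last behavioural test, the end of dosing and the collection of cord for staining on the same day after surgery. The day of collection for sequencing, the hours from test, dose and anaesthesia to freezing, and the age of the rats are not given in the sources used here.

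The values are TPM, a transcript abundance that takes account of gene length and has the same total in every sample, so levels can be set side by side between genes. The read depth behind them is unknown. All 9 samples held the RNA of lumbar cord, with Hoxc10 between 31.0 and 46.9 TPM, Hoxd10 between 16.2 and 26.8 TPM, and all 10 neuron markers and all 10 oligodendrocyte markers above 0. The samples differed in markers of peripheral nerve: Prx, which encodes periaxin, a protein of myelinating Schwann cells, was listed from 2.37 TPM in JA 2 to 124.7 TPM in JA 3. The 13 mitochondrial protein genes took 23.7% to 26.1% of all TPM in SNI, 31.3% to 32.8% in PLM and 25.3% to 32.8% in JA. Because TPM is relative, results were also computed after each sample's log2 values were centred on their median.

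The promoters of these genes are shown first, since shared response elements in them are what the textbook account of the group rests on. The windows are the 250 bases before the RefSeq transcription start in the rat assembly GRCr8, and 8 of the 10 genes had an entry, the others being Fos and Arc. The cyclic AMP response element TGACGTCA, the site that CREB binds, was searched on both strands and stood in 3 of these 8 windows, in Dusp1, Btg2 and Ier2, against 1.59% of all 33469 promoters. The shorter core TGACG, which is part of the full element and was also searched on both strands, stood in 6 of 8 windows against 18.2% of all promoters. The serum response element core (CArG box) stood in 1 of 8 windows, that of Egr1, with 2 matches between 74 and 105 bases before the start, against 1.5% of all promoters. The Fosb and Npas4 windows held none of these letters. Of the 6 windows with the core, 5 are printed 5′ to 3′ on the gene's strand, ending at the base before the start, with the full element or the core in capitals (CGTCA is the core read from the other strand).
Dusp1, chr10:17184603-17184852, plus strand: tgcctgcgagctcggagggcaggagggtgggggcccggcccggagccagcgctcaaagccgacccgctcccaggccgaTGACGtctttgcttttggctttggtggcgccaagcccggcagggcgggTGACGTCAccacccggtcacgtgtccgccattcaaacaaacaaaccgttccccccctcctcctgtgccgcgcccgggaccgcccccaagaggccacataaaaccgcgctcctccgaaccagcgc
Ier2, chr19:40399123-40399372, plus strand: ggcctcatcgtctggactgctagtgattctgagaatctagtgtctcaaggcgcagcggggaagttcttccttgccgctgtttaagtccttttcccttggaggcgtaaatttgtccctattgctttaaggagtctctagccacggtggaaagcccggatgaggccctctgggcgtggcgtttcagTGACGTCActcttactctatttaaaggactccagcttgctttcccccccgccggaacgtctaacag
Btg2, chr13:48087691-48087940, minus strand: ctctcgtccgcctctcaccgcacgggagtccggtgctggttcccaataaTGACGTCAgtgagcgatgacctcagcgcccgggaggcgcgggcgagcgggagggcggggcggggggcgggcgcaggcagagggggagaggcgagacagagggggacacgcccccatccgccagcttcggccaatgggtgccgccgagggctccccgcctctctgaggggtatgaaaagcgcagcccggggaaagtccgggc
Nr4a1, chr7:134259888-134260137, plus strand: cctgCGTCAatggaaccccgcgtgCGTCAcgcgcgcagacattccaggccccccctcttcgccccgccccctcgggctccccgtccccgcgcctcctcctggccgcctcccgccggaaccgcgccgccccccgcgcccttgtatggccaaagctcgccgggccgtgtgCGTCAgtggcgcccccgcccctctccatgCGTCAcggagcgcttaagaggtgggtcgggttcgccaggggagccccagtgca
Junb, chr19:40080876-40081125, plus strand: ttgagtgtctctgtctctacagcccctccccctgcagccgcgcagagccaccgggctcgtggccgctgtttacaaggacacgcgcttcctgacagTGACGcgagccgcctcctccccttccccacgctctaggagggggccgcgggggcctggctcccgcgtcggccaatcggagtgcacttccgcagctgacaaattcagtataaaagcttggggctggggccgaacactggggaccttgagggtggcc
The full element lies 124 to 117 bases before the start of Dusp1, 66 to 59 before Ier2 and 201 to 194 before Btg2. Nr4a1 holds 4 cores and no full element, and its window lies inside the RefSeq gene, which runs from 134247153 to 134268044 on chromosome 7, before the start of a downstream transcript. Only exact matches within these 250 bases were searched, so elements further from the start or with other letters would be missed. A match is a description of the letters, and binding was not measured.

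By mean level over the 9 samples the order was Dusp1 at 60.2 TPM, Btg2 at 24.3, Junb at 22.5, Ier2 at 17.6, Egr1 at 17.3, Nr4a1 at 16.1, Fos at 15.5, Arc at 3.03, Fosb at 0.673 and Npas4 at 0.0411 TPM. Dusp1 was above Btg2 in 9 of 9 samples, and Arc, Fosb and Npas4 stood in that order below Fos in 9 of 9. Among the genes between them the neighbours changed places from sample to sample: Btg2 was above Junb in 5 of 9 samples, Ier2 above Egr1 in 4 of 9 and Nr4a1 above Fos in 4 of 9, whereas Junb was above Ier2 in 9 of 9 and Egr1 above Nr4a1 in 7 of 9. The filter of a mean of at least 1 TPM was passed by 8 of the 10 genes in every comparison. Fosb and Npas4 did not pass it.

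Whether nerve injury or the drug combination moved these genes was examined in 3 pairwise comparisons, with limma on log2(TPM + 1) and Benjamini-Hochberg adjustment over all loci tested. None of the 8 tested genes reached an adjusted p under 0.05 in SNI versus JA, where 0% of 15557 loci did, in PLM versus SNI, where 13.9% of 15474 loci did, or in PLM versus JA, where 0.0195% of 15349 loci did. The smallest adjusted p of limma among the 8 genes was 0.614, 0.264 and 0.546 in these comparisons. At an unadjusted p under 0.05 the counts were 1, 0 and 0 of 8, beside 7.10%, 37.1% and 11.8% of loci. After median-centring 0 of 8 passed the adjusted test in each comparison, beside 0%, 0.814% and 0.0130% of loci. The groups overlapped for all 8 genes in all 3 comparisons, whereas 13.8%, 43.5% and 17.7% of loci had no overlap. The 3 comparisons share samples in pairs, so their values are not independent of each other.

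**Figure D1:**
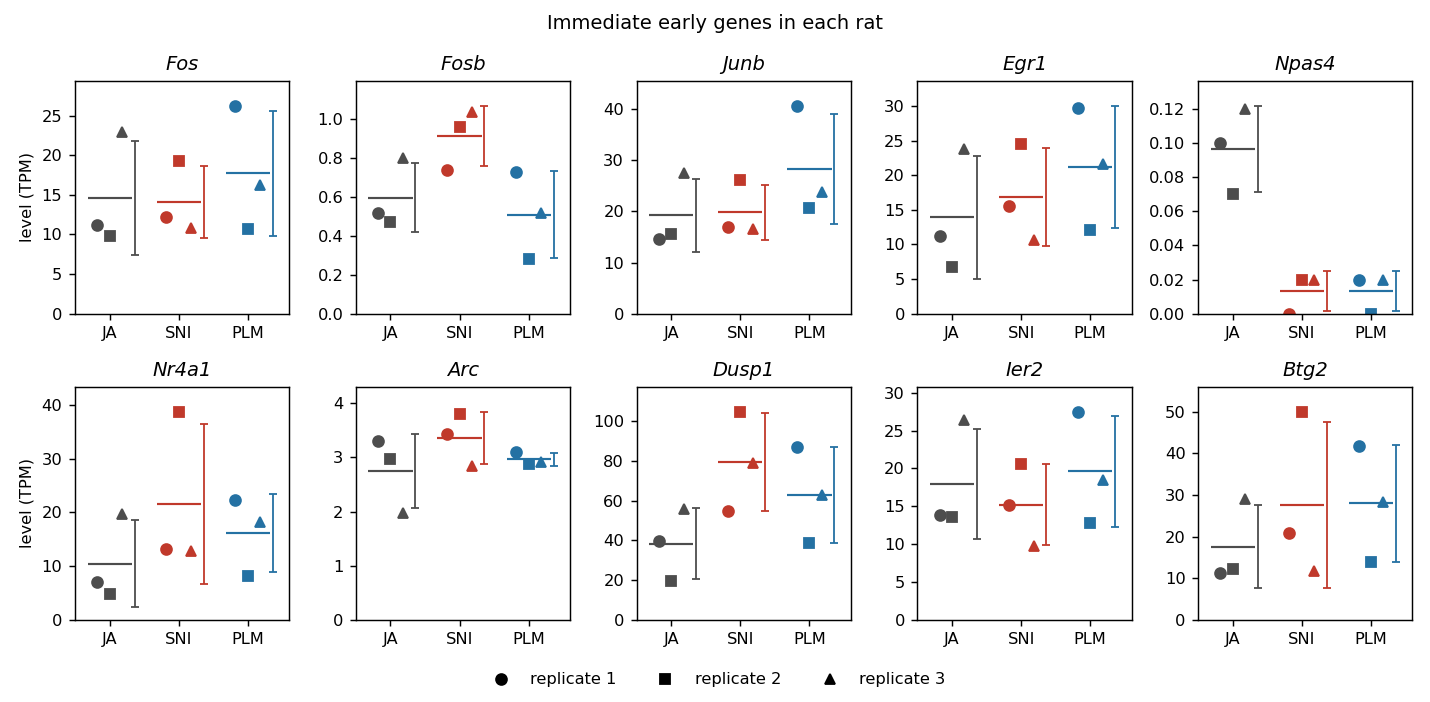
Level in TPM (linear axis, from 0) of each of the 10 genes in JA, SNI and PLM, with circles, squares and triangles for replicates 1, 2 and 3, a horizontal line at the group mean and a bar of 1 SD to either side (n = 3). Samples JA 3, SNI 2 and PLM 1 sit at the top of their groups for most genes, and the groups separate only for Fosb (PLM below SNI) and Npas4 (SNI and PLM below JA).

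AP-1 is a dimer of Jun and Fos family proteins, of which Junb belongs to the Jun family and Fos and Fosb to the Fos family. Fos, the gene most used as a marker of activated spinal neurons, was at 11.2, 9.77 and 22.9 TPM in JA 1, 2 and 3, at 12.2, 19.2 and 10.8 TPM in SNI 1, 2 and 3, and at 26.2, 10.7 and 16.2 TPM in PLM 1, 2 and 3. A high sample stood in each group, and the means were 14.6 ± 7.19 TPM for JA, 14.1 ± 4.49 TPM for SNI and 17.7 ± 7.85 TPM for PLM (SD, n = 3). The log2 fold change of Fos was 0.00 in SNI versus JA (95% confidence interval -0.80 to 0.81), 0.27 in PLM versus SNI (-0.55 to 1.08) and 0.27 in PLM versus JA. After median-centring, that of SNI versus JA was -0.12 and that of PLM versus SNI 0.51. Without PLM 1 the values of PLM versus SNI and PLM versus JA turned to -0.05 and -0.04. The intervals leave room for a change in either direction in each of these comparisons.

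Junb was at 14.5, 15.6 and 27.5 TPM in JA, at 16.9, 26.0 and 16.5 TPM in SNI and at 40.6, 20.7 and 23.8 TPM in PLM. PLM 1 had the highest level of the 9 samples, while PLM 2 and 3 lay within the range of the other groups. Its log2 fold change was 0.07 in SNI versus JA (95% confidence interval -0.59 to 0.73), 0.47 in PLM versus SNI (-0.21 to 1.15, adjusted p of limma 0.264) and 0.54 in PLM versus JA. That of PLM versus SNI was 0.71 after median-centring, with an unadjusted p of 0.0567, and 0.19 without PLM 1. In PLM versus JA it was 0.25 without PLM 1. Fosb, whose truncated product is known to build up under repeated stimulation, was at 0.520, 0.470 and 0.800 TPM in JA, at 0.740, 0.960 and 1.04 TPM in SNI and at 0.730, 0.280 and 0.520 TPM in PLM. All 3 PLM samples were below all 3 SNI samples, with 0.730 and 0.740 TPM as the nearest pair, and JA overlapped with both. With no filter on low values, 31.7% of 21973 loci were lower in PLM than in SNI without overlap. In that fit the log2 fold change of Fosb was -0.35, with an unadjusted p of 0.0404 and an adjusted p of limma of 0.161. The exact permutation test, two-sided, gave 0.1, the smallest p that 3 samples against 3 allow.

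The other transcription factors differed in level. Egr1, a zinc finger factor used as a marker of synaptic activity, was at 11.2, 6.72 and 23.8 TPM in JA, at 15.5, 24.6 and 10.6 TPM in SNI and at 29.7, 12.1 and 21.7 TPM in PLM. The spread within JA alone was 3.54-fold from the lowest to the highest sample. The log2 fold change of Egr1 was 0.36 in SNI versus JA (95% confidence interval -0.74 to 1.46), 0.30 in PLM versus SNI (-0.64 to 1.23) and 0.66 in PLM versus JA (-0.48 to 1.79). The value of SNI versus JA was -0.03 without JA 2, 0.06 without SNI 2 and 0.81 without JA 3. That of PLM versus SNI was 0.55 after median-centring, and 0.02 without PLM 1 or without SNI 3. In PLM versus JA it was 0.27 without JA 2.

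Nr4a1, an orphan nuclear receptor induced in neurons and in myeloid cells, was at 6.95, 4.73 and 19.7 TPM in JA, at 13.2, 38.6 and 12.8 TPM in SNI and at 22.2, 8.17 and 18.2 TPM in PLM. It had the largest range of the 8 tested genes, 8.17-fold between SNI 2 and JA 2. The group means were 10.4 ± 8.06 TPM in JA and 21.5 ± 14.8 TPM in SNI (SD, n = 3), and the log2 fold change of SNI versus JA was 1.01 with a 95% confidence interval of -0.37 to 2.40. It was 0.51 without SNI 2, 0.63 without JA 2 and 1.55 without JA 3. Npas4, a factor that neurons make when calcium enters, was at 0.10, 0.07 and 0.12 TPM in JA, at 0, 0.02 and 0.02 TPM in SNI and at 0.02, 0 and 0.02 TPM in PLM. All 3 JA samples were above all SNI and PLM samples, at levels where the table lists 2 decimals. With no filter, 1.83% of 21997 loci were lower in SNI than in JA without overlap, and 12.6% of 21863 loci lower in PLM than in JA. The adjusted p of limma for Npas4 was 0.704 and 0.501 in those fits, with unadjusted values of 0.0330 and 0.0341. No fold is given for Npas4, because it is listed at 0 in a sample of each injured group.

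Arc, whose product acts at synapses to remove AMPA receptors, was the steadiest of the 8 tested genes. It was at 3.30, 2.98 and 1.98 TPM in JA, at 3.43, 3.80 and 2.85 TPM in SNI and at 3.10, 2.88 and 2.91 TPM in PLM. JA 3, high for the other 7 tested genes, had the lowest Arc of all samples. The log2 fold change of Arc was 0.23 in SNI versus JA (95% confidence interval -0.21 to 0.66) and -0.13 in PLM versus SNI (-0.42 to 0.15), and these became 0.11 and 0.12 after median-centring. Without JA 3 the value of SNI versus JA was 0.07. Without SNI 2 that of PLM versus SNI was -0.06, and without SNI 3 it was -0.22.

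Dusp1 removes phosphate from MAP kinases and so limits the signal that induces it. With all samples it gave the largest log2 fold change of the 8 tested genes, in SNI versus JA. Nr4a1 was close behind there at 1.01, and ahead of Dusp1 without JA 3 or without SNI 3. Dusp1 was at 39.7, 19.7 and 55.8 TPM in JA, at 55.0, 104.6 and 79.2 TPM in SNI and at 86.8, 38.6 and 62.9 TPM in PLM. SNI 1, the lowest of its group, was just below JA 3, the highest of its group, so the groups overlapped. The log2 fold change of SNI versus JA was 1.10 (SE 0.39, 95% confidence interval 0.16 to 2.04), with an unadjusted p of 0.0279 and an adjusted p of limma of 0.614. The exact permutation test, two-sided, gave 0.2. Dusp1 was the 1 gene of the 8 past the thresholds of the study, an unadjusted p under 0.05 with an absolute log2 fold change above 1, which 0.688% of loci passed in SNI versus JA. After median-centring 0 of 8 passed them, beside 0.534% of loci, and in PLM versus SNI and PLM versus JA 0 of 8 did, beside 1.65% and 0.938% of loci. The centred log2 fold change of Dusp1 in SNI versus JA was 0.98, with an unadjusted p of 0.0547, and after quantile normalization it was 0.99, with 0.0510. With the replicate number as a block in the limma fit, the unadjusted p was 0.0546. Without JA 2 the fold change was 0.70 with an unadjusted p of 0.0558, without SNI 2 it was 0.88 with 0.0875 and without SNI 3 it was 1.08 with 0.0653. Without JA 3 both Dusp1, at 1.43, and Nr4a1, at 1.55, were past the thresholds of the study, beside 0.669% of loci. In PLM versus SNI the log2 fold change of Dusp1 was -0.37 (95% confidence interval -1.18 to 0.45). It was -0.12 after median-centring, and the omission of single samples gave -0.06 (without PLM 2) to -0.63 (without PLM 1), with -0.15 without SNI 2 and -0.60 without SNI 1.

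Ier2, a nuclear regulator whose targets are less known, was at 13.8, 13.6 and 26.4 TPM in JA, at 15.2, 20.5 and 9.81 TPM in SNI and at 27.4, 12.8 and 18.5 TPM in PLM. As deposited it was the 1 tested gene with a lower mean log2 level in SNI than in JA, at a log2 fold change of -0.22 (95% confidence interval -1.003 to 0.57). After median-centring the value was -0.34, and Fos and Junb were then lower too, at -0.12 and -0.05. That of Ier2 turned to 0.08 without JA 3 and to 0.05 without SNI 3. Btg2, an anti-proliferative gene that p53 and growth factors induce, was at 11.3, 12.3 and 29.0 TPM in JA, at 21.0, 49.9 and 11.7 TPM in SNI and at 41.7, 13.8 and 28.4 TPM in PLM. Within SNI it spanned 4.25-fold, wider than the ratio of any pair of its group means. The log2 fold change of Btg2 was 0.51 in SNI versus JA (95% confidence interval -0.81 to 1.83) and 0.13 in PLM versus SNI (-1.27 to 1.52), the second of which was 0.37 after median-centring. Both turned with single samples: SNI versus JA was -0.02 without SNI 2 and 0.98 without SNI 3, and PLM versus SNI was -0.34 without SNI 3, -0.22 without PLM 1 and 0.66 without SNI 2.

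As a group, 7 of the 8 tested genes had a log2 fold change above 0 in SNI versus JA, where 76.4% of loci did. For PLM versus SNI it was 5 of 8, where 15.0% of loci did, and in PLM versus JA 8 of 8, where 28.8% of loci did. Over the 8 genes the median was 0.29, 0.20 and 0.59 on the log2 scale in these comparisons, beside 0.12, -0.21 and -0.10 over all loci. After median-centring the counts above 0 were 5, 6 and 8 of 8, beside 48.6%, 57.6% and 56.3% of loci, and the medians of the 8 genes were 0.17, 0.44 and 0.71. Leaving out SNI 2 or JA 2 left 4 of 8 above 0 in SNI versus JA, leaving out PLM 1 left 3 of 8 in PLM versus SNI, and in PLM versus JA the omission of a sample left 6 to 8. The medians moved with single samples too. That of PLM versus SNI was negative without PLM 1, that of PLM versus JA fell without PLM 1, and that of SNI versus JA fell without SNI 2. No single gene passed the adjusted test. In PLM versus JA, leaving out JA 3 put 3 genes past the thresholds of the study, Dusp1, Nr4a1 and Egr1 at log2 fold changes of 1.06, 1.25 and 1.11, beside 1.49% of loci. Leaving out PLM 2 put Dusp1 and Btg2 past them at 1.04 and 1.06, beside 0.893% of loci. The adjusted p of limma for these values ran from 0.205 to 0.745. These were 2 of 14 alternatives, and the other 12 put no gene past the thresholds. Without JA 2 the values of Dusp1, Nr4a1 and Egr1 were 0.33, 0.32 and 0.27, and without PLM 1 that of Btg2 was 0.30.

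**Figure D2:**
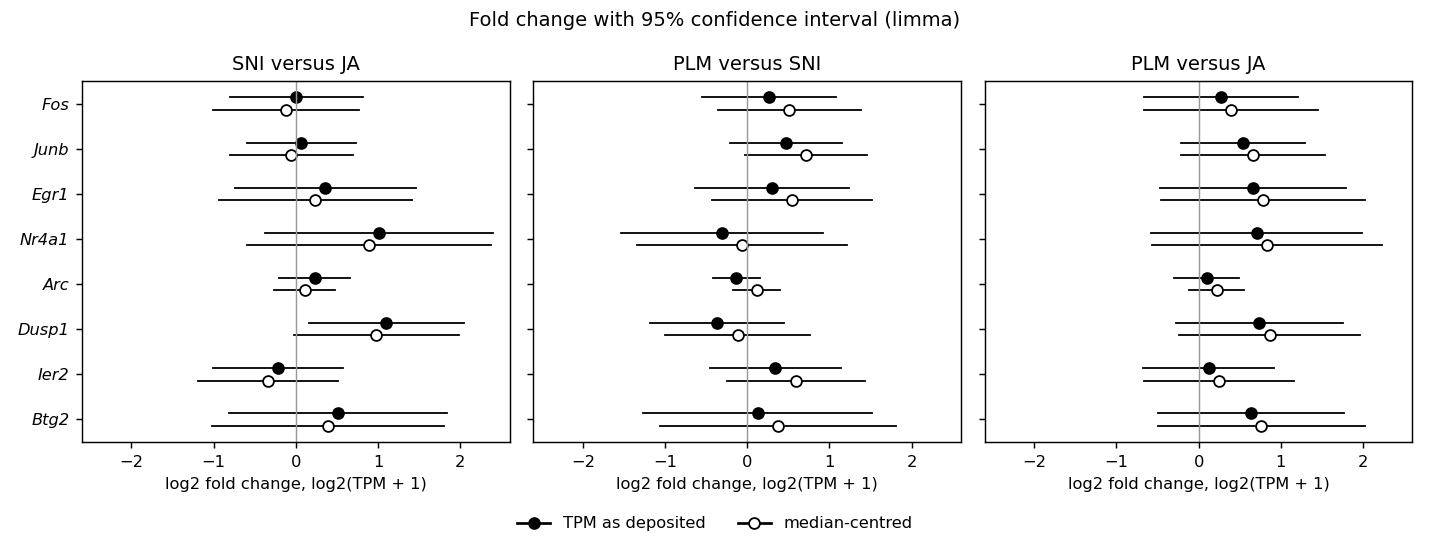
Log2 fold change on the log2(TPM + 1) scale (horizontal axis, the same in the 3 panels) of the 8 tested genes in SNI versus JA, PLM versus SNI and PLM versus JA, with filled circles for TPM as deposited, open circles for median-centred values and lines for the 95% confidence interval of limma. The interval of Dusp1 in SNI versus JA, 0.16 to 2.04 as deposited, is the only one of the 24 filled circles that lies wholly on one side of 0, and it holds 0 after median-centring.

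Rats of the same group differed widely for most of these genes. The SD within groups of log2(TPM + 1), pooled over the 3 groups, had a median of 0.58 over the 8 tested genes, beside 0.16 over the 15503 loci at or above 1 TPM on average and 0.27 over 46 other rapid response genes. Nr4a1 had the largest SD within groups at 0.85, followed by Btg2 at 0.84, Egr1 at 0.69, Dusp1 at 0.60, Fos at 0.55, Ier2 at 0.51, Junb at 0.45 and Arc at 0.19. Among loci whose mean TPM lay within 2-fold of the gene's own, an SD at least as large was found for 1.41% for Btg2, 1.5% for Dusp1, 2.41% for Nr4a1, 2.93% for Egr1, 4.51% for Ier2, 4.59% for Fos and 4.87% for Junb. For Arc it was 54.9%, so that Arc varied as loci of its level generally did. Median-centring left the median SD of the 8 genes at 0.61, so scaling by the sample's median did not lower it.

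**Figure D3:**
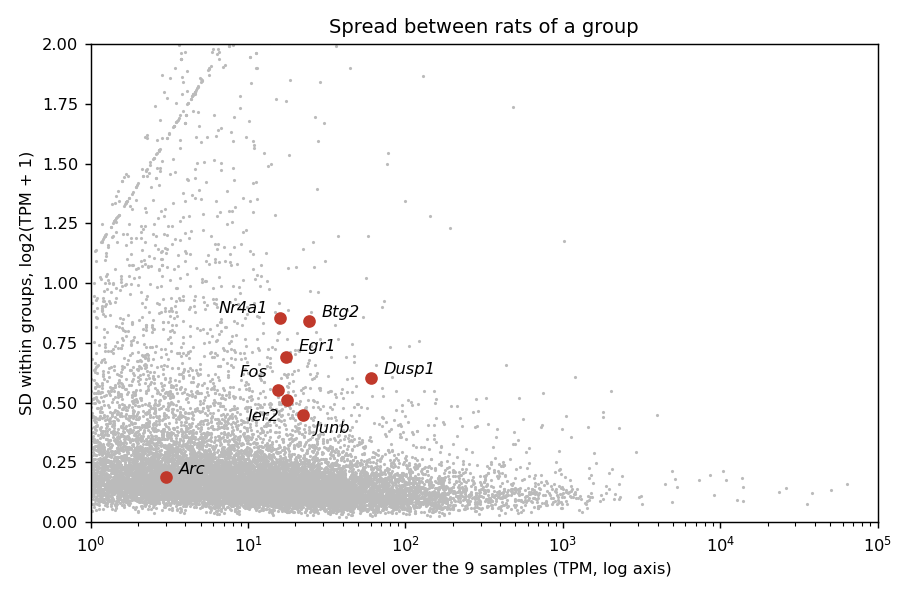
SD within groups of log2(TPM + 1), pooled over JA, SNI and PLM, against the mean level over 9 samples in TPM (log axis), with a grey point for each of 15503 loci and red circles for the 8 tested genes (92 loci lie above the top of the vertical axis). Of the genes, 7 lie between 0.45 and 0.85, above most loci of their level, and Arc lies among them at 0.19.

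The samples that were high were the same for nearly every gene. SNI 2 was the highest SNI sample and PLM 1 the highest PLM sample for 8 of 8 genes, and JA 3 was the highest JA sample for 7 of 8, all but Arc. Over all loci these samples were the highest of their group for 30.0%, 19.5% and 18.9%, and after median-centring for 32.2%, 41.8% and 35.5%. PLM 2 was the lowest of its group for 8 of 8 genes, SNI 3 for 7 of 8 and JA 2 for 5 of 8, beside 23.8%, 35.7% and 34.9% of all loci. After median-centring these counts were 7, 5 and 4 of 8, beside 30.7%, 28.8% and 36.2% of loci. For the 7 genes other than Arc, JA 3 lay 0.55 to 1.08 above its group mean on the log2 scale, SNI 2 0.41 to 1.07 above and PLM 1 0.53 to 0.69 above. The pattern of being highest in JA 3, SNI 2 and PLM 1 together was found in 7 of 8 tested genes, in 6 of 46 other rapid response genes and in 1.28% of loci (after median-centring in 7 of 8, in 10 of 46 and in 4.3%). These 3 samples were singled out from the values of the 8 genes themselves, so the count describes how far the genes move together and is no test.

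**Figure D4:**
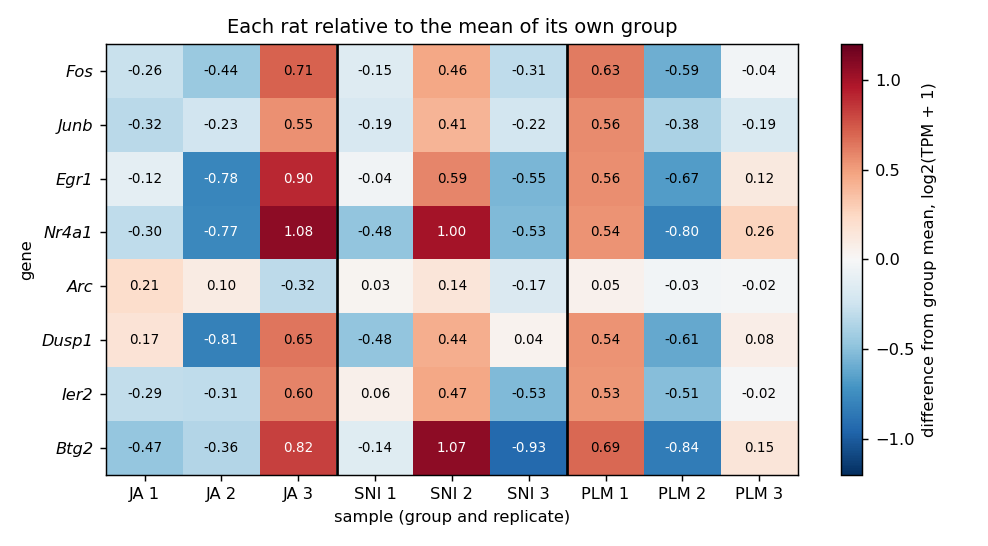
Difference of each sample (columns) from the mean of its own group on the log2(TPM + 1) scale, for the 8 tested genes (rows), with red above and blue below the group mean and vertical lines between the groups. SNI 2 and PLM 1 lie above and PLM 2 below the group mean for 8 of 8 genes, and JA 3 lies above it for all but Arc, which is at -0.32 there and stays between -0.32 and 0.21 in the 9 samples.

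Transcripts of tissue that dissection of the cord can carry along were set beside this pattern. The summed level of the 10 genes was 112.6, 85.9 and 208.0 TPM in JA 1, 2 and 3, 153.2, 288.2 and 155.3 TPM in SNI, and 278.5, 120.0 and 193.0 TPM in PLM. The 8 Schwann cell markers together ranged from 581 to 2706 TPM in JA, from 748 to 1759 TPM in SNI and from 526 to 1415 TPM in PLM. A gene of that list is also among the other rapid response genes. The sum was still 581 TPM in JA 2, where Prx was lowest. Prx was at 13.9, 2.37 and 124.7 TPM in JA, at 8.50, 73.7 and 27.4 TPM in SNI and at 4.54, 15.1 and 54.6 TPM in PLM. The JA and SNI samples with the highest immediate early genes therefore also had the most Prx. PLM 1 went the other way, with the highest immediate early genes of its group and the least Prx. Markers of meninges and fibroblasts behaved alike, with sums of 386 TPM in JA 3, 278 TPM in SNI 2 and 77.8 TPM in PLM 1, the highest, the highest and the lowest of their groups. Their part in the result was not tested.

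Blood and neuron transcripts were read in the same way. The 8 matched blood cell markers summed to 5698, 5413 and 11922 TPM in JA 1, 2 and 3, to 6754, 7305 and 4150 TPM in SNI 1, 2 and 3, and to 10365, 8010 and 11246 TPM in PLM 1, 2 and 3. The sum was highest in JA 3 and SNI 2, while PLM 1 was between PLM 2 and PLM 3. By the mean of their log2 levels, in which abundant haemoglobin weighs less, the highest SNI sample was SNI 1, at 6.77 against 6.07 in SNI 2. The 10 neuron markers summed to 2189, 1299 and 1647 TPM in JA, to 2411, 2037 and 2485 TPM in SNI and to 1920, 2074 and 1942 TPM in PLM. SNI 2 and PLM 1 had the lowest neuron sum of their groups, whereas in JA the lowest was JA 2 and JA 3 was in the middle. In bulk tissue, fewer cells of a type and less RNA per cell cannot be told apart. All 10 astrocyte markers were lower in PLM than in SNI at an adjusted p under 0.05 in limma (7 of 10 after median-centring), beside 13.6% of loci lower as deposited and 0.814% in either direction after median-centring, with sums of 1493 to 1812 TPM against 3074 to 3414 TPM, where 0 of the 8 immediate early genes passed. The astrocyte sums of JA 1, 2 and 3 were 3543, 2788 and 1816 TPM, so JA 3 stood close to the PLM samples. The part of these cell types in the values of the 10 genes was not tested.

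**Figure D5:**
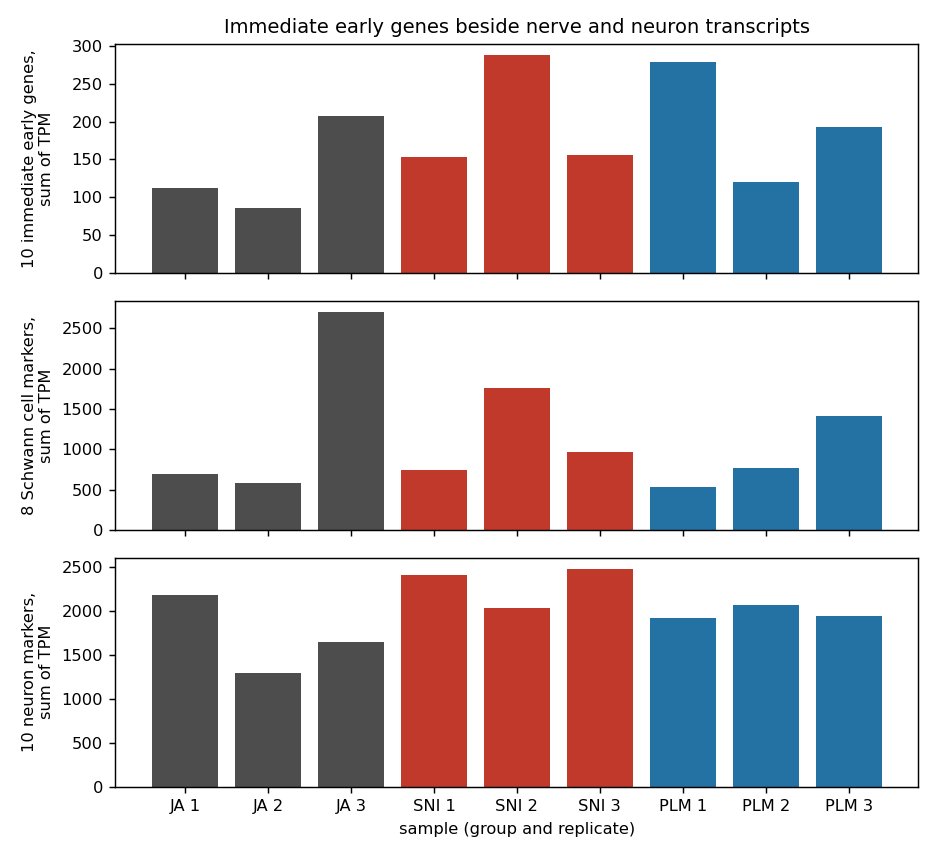
Summed TPM of the 10 immediate early genes (top), summed TPM of 8 Schwann cell markers (middle) and summed TPM of the 10 neuron markers (bottom) in each of the 9 samples, on linear axes from 0, with grey, red and blue bars for JA, SNI and PLM. JA 3 and SNI 2 have the tallest bars of their groups in the top and middle panels, while PLM 1 has the tallest in the top panel and the shortest in the middle one.

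Of 50 other immediate early and rapid response genes, listed with earlier results of these data known, 49 were matched. In SNI versus JA, 0 of 47 tested reached an adjusted p under 0.05 in limma, 6 were higher and 0 lower at an unadjusted p under 0.05, beside 7.10% of loci in either direction, and the median log2 fold change was 0.23, beside 0.12 over all loci. After median-centring 1 of 47 had such a p, beside 751 of 15557 loci, and the median was 0.11, beside -0.005 over all loci. The thresholds of the study were passed as deposited by 2 of 47, both higher, beside 0.688% of loci. After median-centring 0 of 47 passed them, beside 0.534% of loci. Between PLM and SNI 2 of 47 passed and both were lower, in a comparison where 13.6% of loci were. Rhob, a small GTPase gene induced by growth factors and stress, was at 316 ± 8.90 TPM in SNI and fell to 259.9 ± 2.14 TPM with the drugs (SD, n = 3). Its log2 fold change was -0.28, at an adjusted p of limma of 0.0227. Ier5, an immediate early gene that acts on heat shock factor, fell from 11.4 ± 0.930 to 8.40 ± 0.906 TPM, at a log2 fold change of -0.40 and an adjusted p of limma of 0.0497. Both calls were lost after median-centring, where 0 of 47 passed, beside 0.814% of loci. Leaving out any single sample left 1 (without SNI 2) or 0 past the threshold. Over all loci the number passing went from 2148 of 15474 to 1494 of 15397 without SNI 2, and to 275 to 700 without any other sample. For this list the PLM versus SNI median was -0.30 on the log2 scale and -0.05 after median-centring, and for the 8 immediate early genes it was 0.20 and 0.44. Without PLM 1 the median of the 8 genes as deposited was negative as well. At an unadjusted p under 0.05, 12 of 47 were lower and 0 higher in PLM versus SNI, beside 37.1% of loci in either direction. The thresholds of the study were passed there by 2 of 47, both lower and neither of them Rhob or Ier5, beside 1.65% of loci. After median-centring 0 of 47 passed them, beside 102 lower and 64 higher of 15474 loci. In PLM versus JA 0 of 43 passed the adjusted test, with 3 at an unadjusted p under 0.05, beside 11.8% of loci.

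The most abundant of these other genes did not share the sample pattern, apart from Jun. Rhob lay between 249 and 326 TPM over all 9 samples. Sgk1, a kinase gene that glucocorticoids induce, was at 85.1, 95.9 and 128 TPM in JA, at 99.0, 136.8 and 245.7 TPM in SNI and at 153.2, 73.5 and 157.7 TPM in PLM. Its highest SNI sample was SNI 3, where 7 of the 8 immediate early genes were lowest. Jund, an AP-1 subunit gene with steady expression, lay between 81.5 and 107.9 TPM. Nfkbia, the inhibitor of NF-κB that NF-κB itself induces, lay between 29.4 and 67.0 TPM, and Klf2, a vascular zinc finger factor, between 33.6 and 67.2 TPM. Jun, the partner of Fos in AP-1, was at 34.7, 28.5 and 34.9 TPM in JA, at 43.4, 52.8 and 35.7 TPM in SNI and at 55.0, 34.0 and 40.4 TPM in PLM, and was highest in JA 3, SNI 2 and PLM 1 like the immediate early genes.

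Upstream of these genes, 28 kinases and transcription factors that carry the inducing signal were tested. In SNI versus JA 0 of 28 passed the adjusted test of limma and 1 had an unadjusted p under 0.05, beside 7.10% of loci. With PLM against SNI 2 of 28 passed, and both were lower, as 13.6% of loci were. Elk1, a partner of serum response factor, fell from 2.73 ± 0.917 to 0.430 ± 0.494 TPM at a log2 fold change of -1.41, and Mrtfa, a further partner of it, from 4.02 ± 0.336 to 2.62 ± 0.290 TPM at -0.47 (SD, n = 3), with adjusted p of limma of 0.0380 and 0.0437. The mean of Elk1 in PLM was under 1 TPM, so it passed the filter on low values only through SNI, the group where it was high, and its call is no support for a change of the list. Of 11 heat shock and acute stress genes 4 passed in PLM versus SNI and all 4 were lower, beside the same 13.6% of loci: the chaperone genes Hspa5, Hsph1, Hspa8 and Dnajb1, at log2 fold changes of -0.32, -0.32, -0.24 and -0.30. Neither list had a passing gene after median-centring. Elk1 then had a log2 fold change of -1.16, an unadjusted p of 0.0109, which with that fold change passes the thresholds of the study, and an adjusted p of limma of 0.167, with the same limit from the filter. Leaving out single samples left 2 upstream genes and 3 heat shock genes without SNI 2, 1 heat shock gene without PLM 3, and 0 of either list without any other sample. Over all loci 1494 of 15397 passed without SNI 2, 700 of 15434 without PLM 3, and 275 to 607 without any other sample. In PLM versus JA 0 of 28 and 0 of 11 passed in limma, with 1 gene of each list at an unadjusted p under 0.05, and in SNI versus JA 0 of 11 heat shock genes passed, with 3 at an unadjusted p under 0.05. Over all loci 11.8% in PLM versus JA and 7.10% in SNI versus JA had such a p.

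The loci whose values followed the 8 genes most closely were found from the root mean square difference between their log2 profile and the mean profile of the 8 genes, each centred on its own mean over the 9 samples. The mean profile itself had a root mean square of 0.48 and ran from -0.73 in JA 2 to 0.70 in PLM 1. Zfp36, whose product tristetraprolin destabilises AU-rich messenger RNA, was nearest at a difference of 0.16, with 19.6, 15.2 and 28.9 TPM in JA, 24.5, 36.01 and 22.9 TPM in SNI and 52.9, 22.5 and 29.1 TPM in PLM. It is itself a rapid response gene and was on the list of 50. Next were Ch25h, the gene of cholesterol 25-hydroxylase, at 0.20, the interferon-induced gene Ifit3 at 0.24, the platelet chemokine gene Pf4 at 0.27 and Tmem252, a membrane protein gene, at 0.27. Ch25h lay between 3.19 and 10.2 TPM and Ifit3 between 3.90 and 16.8 TPM. All of these loci had their highest level of each group in JA 3, SNI 2 and PLM 1. They were picked for their closeness to the profile of the 8 genes, so the shared pattern was nearly fixed by the choice and is no test.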

How the data were processed

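RNA of the ipsilateral L3-L6 spinal cord was sequenced from Illumina TruSeq libraries in 3 groups of 3 rats (JA, SNI, PLM), grouped by sample title. According to the methods of the study, the authors removed adaptors and low-quality reads, mapped with HISAT2, computed expression values with StringTie and called genes with DESeq2. Processing notes in the labels name CASAVA, fastp 0.19.5 and StringTie, and a human build, whereas the identifiers are rat Ensembl ones, so the rat build is not given in the sources used here. The authors deposited 1 table of TPM per locus. The unit was read from the values, each sample summing to 1000000 within rounding. TPM keeps no depth, so no counting error is given and no test made for counts was run.

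Pairs of groups were tested with limma 3.58.1 (R 4.3.3) on log2(TPM + 1), two-sided and with a variance trend, at loci averaging 1 TPM or more in the 6 samples of the pair. Fold changes are on that scale, which understates low genes. Genes passed at a Benjamini-Hochberg adjusted p under 0.05 over all loci tested, and the thresholds of the study (unadjusted p under 0.05, absolute log2 fold change above 1) were counted beside it. p-values rest on the spread between samples within groups. In limma the variance of each locus is drawn toward that of loci of like level. A gene that varies more than such loci, as most of the tested genes did, can thereby get a smaller SE than its own values would give. Loci within 2-fold in mean TPM served as those of like level. The alternatives were median-centring, quantile normalization, rescaling without 13 mitochondrial protein genes, a pseudocount of 0.1, no filter and a stricter one, a fit to 9 samples, a replicate block, and the omission of single samples. Median-centring together with the thresholds of the study was added after the data had been seen.

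All 10 genes were named. The rule allowed up to 6 genes per other list and comparison past the adjusted threshold in order of p, which was used for the rapid response, upstream and heat shock lists, while marker and mitochondrial lists are given by counts, sums and shares. It also took the 6 most abundant other rapid response genes, and the 5 loci most alike in profile. Prx, Hoxc10 and Hoxd10 stand for their marker lists and were picked after their values were seen. The members and lists were chosen with earlier results of these data known. Promoters and their coordinates come from RefSeq (GRCr8), matched by symbol. Lipid, protein, behavioural and qPCR measurements were not analysed here, and 2 further genes were left out of the lists and are not reported here.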

Additional observations from a re-analysis of the deposited data

How the results depend on the processing

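In no comparison did any of the 8 tested genes pass the adjusted threshold under any of 14 alternatives per comparison, 6 of them leaving out a sample. The smallest adjusted p of limma over these was 0.276 in SNI versus JA, 0.154 in PLM versus SNI and 0.205 in PLM versus JA. The thresholds of the study gave 1 gene in SNI versus JA (Dusp1), and 0 after median-centring or quantile normalization. Directions of genes that did not pass were less steady: of 112 values per comparison, 16, 7 and 5 had the other sign. In SNI versus JA, Fos was at -0.12 median-centred, -0.11 quantile-normalized and -0.081 without mitochondrial genes, and Junb at -0.054, -0.060 and -0.018. In PLM versus SNI, Arc was at 0.12 median-centred and 0.090 quantile-normalized. Leaving out a sample, log2 fold changes in SNI versus JA ran from -0.23 to 0.36 for Fos, -0.14 to 0.34 for Junb, -0.034 to 0.81 for Egr1, -0.45 to 0.082 for Ier2 and -0.023 to 0.98 for Btg2. Between PLM and SNI they ran from -0.047 to 0.56 for Fos, -0.58 to 0.19 for Nr4a1 and -0.34 to 0.66 for Btg2, and in PLM versus JA from -0.043 to 0.62 for Fos, -0.062 to 0.20 for Arc and -0.14 to 0.42 for Ier2. The cause was not tested. The count of other rapid response genes passing in PLM versus SNI, 2 as reported, was 0 to 5 under the alternatives. It was 5 with at least 1 TPM required in every sample, where 2639 of 13906 loci passed. Tests for counts were planned only for a table of counts and were not run.

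The labels do not say whether the replicate numbers pair the samples. Deviations from group means of same-numbered samples correlated across loci at 0.12, -0.05 and 0.06 in SNI and JA, at 0.03, -0.02 and -0.01 in PLM and SNI, and at -0.02, -0.01 and 0.11 in PLM and JA. Differently numbered samples reached 0.14 (SNI 2 and JA 3). Correlations over all loci cannot exclude a pairing that acts on few genes. With the replicate block 0 of the 8 genes passed in each comparison, Dusp1 in SNI versus JA had an unadjusted p of 0.0546 and so missed the thresholds of the study, Dusp1 in PLM versus JA went from an unadjusted p of 0.128 to 0.00953 at the same log2 fold change of 0.74, and the loci passing in PLM versus SNI went from 2148 to 152.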
